A study of Rattus norvegicus with 30 samples.

Results

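The family of miR-103 and miR-107 has 2 members on the chip, rno-miR-103 and rno-miR-107, chosen by name among 388 miRNA names on the hepatectomy layout and among 680 on the sham layout. Livers of male Wistar rats were taken after partial hepatectomy, the surgical removal of 70% of the organ, at 0, 2, 6, 12, 24 and 48 h and 5 d, and after a sham laparotomy, an abdominal opening without resection, at 12, 24 and 48 h. Each of the 10 groups had 3 biological replicates, so there were 30 arrays, 1 per sample. No transgene or drug was part of the design, and the labels give no age. Whole-liver RNA was hybridised to a 1-colour febit chip, on which the captured miRNA itself primes the addition of biotin-labelled nucleotides. In such bulk samples, fewer cells of a type and less RNA per cell cannot be told apart.

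MicroRNAs are short RNAs that guide silencing complexes to messenger RNAs, mainly through pairing of the seed, the bases near the 5′ end. miR-103 and miR-107 are paralogues produced from introns of the pantothenate kinase genes, whose enzymes carry out the first step of coenzyme A synthesis. In mice the family is known for its part in insulin sensitivity, with raised levels in liver or fat disturbing glucose handling and with caveolin-1 as a target in adipocytes. Liver regrowth after hepatectomy proceeds while blood glucose and fat supply change. The comparisons follow these miRNAs over the times after hepatectomy and set them beside sham laparotomy.

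The mature sequences show why the pair is described together. They are printed from RefSeq (build GRCr8), 5′ to 3′, with the seed, bases 2 to 8, in capitals.
miR-103-3p: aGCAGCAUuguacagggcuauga
miR-107-3p: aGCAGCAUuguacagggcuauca
Both are 23 bases long and identical at 22 of them, and the single change, G22C with miR-103 given first and positions counted from the 5′ end, lies outside the seed. Among 693 mature rat miRNA names in the RefSeq table, only these 2 carry this seed. Mature miR-107 lies at chr1:241750431-241750453 on the minus strand, within Pank1. miR-103 has 2 genes. Mir103a2, within Pank2, holds the mature sequence at chr3:138963278-138963300 on the plus strand, and the hairpin of Mir103a1, within Pank3, lies at chr10:20748474-20748559 on the plus strand. The chip cannot tell the 2 miR-103 genes apart, and how far each probe binds the other member was not tested.

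Relatives in the miR-15/16 family are known for restraining the cell cycle. Those shown carry the same 6 bases GCAGCA 1 base further along, and 2 of them return in the comparison of operations.
miR-16-5p: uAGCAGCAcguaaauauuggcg
miR-322-5p: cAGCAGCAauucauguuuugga
miR-497-5p: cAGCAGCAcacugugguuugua
In miR-103 and miR-107 these 6 bases start at position 2, and in these 3 relatives at position 3. miR-503, also counted among the relatives, does not hold the 6 bases.

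The arrays were checked before the members were read. miR-122, the defining miRNA of hepatocytes, was the brightest name on each of the 3 arrays at 0 h, and miR-192 and miR-194, also hepatocyte markers, lay between the 98.5th and the 99.0th percentile there. Names of other tissues were dimmer: median percentiles ran from 19.1 (miR-1) to 69.6 (miR-133b) for 4 striated muscle names and from 19.8 (miR-9) to 72.4 (miR-128) for 3 neural names. Array brightness differed. On 8 hepatectomy arrays the median raw spot was 544 to 608 intensity units, on the other 13 it was 976 to 1328, and on the 9 sham arrays 296 to 408. All 3 arrays at 24 h after hepatectomy were among the bright 13, while 2 h and 5 d had 1 bright array each. No label names this split as a batch.

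Both members were measured above background. After the authors subtracted 1 background constant per array, miR-103 kept a positive signal on 21 of 21 hepatectomy arrays, from 72 to 1041 intensity units with a median of 488, and on 9 of 9 sham arrays, from 188 to 1608.5. miR-107 was positive on 20 of 21 hepatectomy arrays, from 0 to 784 with a median of 336, and on 9 of 9 sham arrays, from 100 to 500. The array at 0 units was replicate 2 of 2 h. Of the single spots, 92.7% of 314 for miR-103 and 91.7% of 315 for miR-107 exceeded the background of their hepatectomy array, against 100% of 198 and 96.4% of 197 on sham arrays. Brightness of different probes is not comparable, so the 2 signals say nothing about which miRNA is more abundant.

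**Figure D1:**
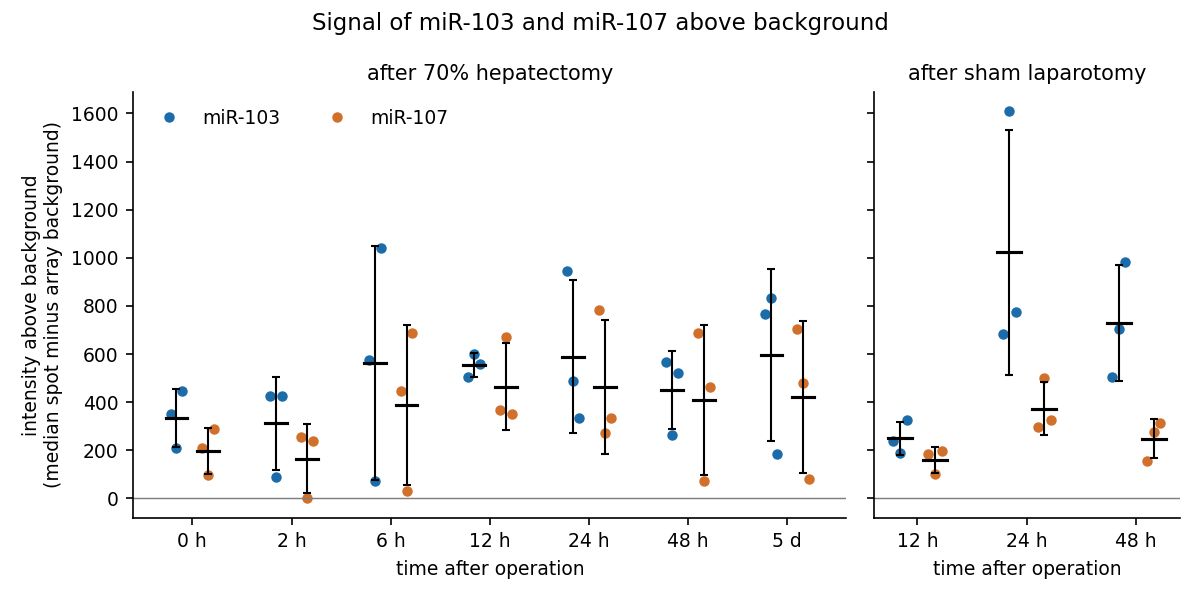
Points give the authors' background-subtracted intensity of miR-103 (blue) and miR-107 (orange) on each array, with no scaling between arrays; horizontal bars are means and whiskers SD of 3 arrays. After hepatectomy the arrays of a time spread widely, down to 72 and 0 units, and after sham laparotomy miR-103 was at 684 to 1608.5 units at 24 h and at 188 to 324 units at 12 h.

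The first question is whether the family changed during regrowth. On the normalized log2 scale all arrays were given the same distribution of spot values, and spots were then averaged per name. On that scale neither member differed over the 7 times after hepatectomy. The moderated F test of limma gave an adjusted p of 0.994 for both, while 9 of 388 names passed at an adjusted p of 0.05 (2.32%).

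miR-103 had normalized log2 levels of 9.08, 8.88 and 9.14 in the 0 h livers and of 9.30, 8.42 and 9.44 in the 2 h livers. The 6 h livers had 9.35, 8.19 and 9.24, those of 12 h 9.19, 8.83 and 9.10, and those of 24 h 9.66, 9.16 and 8.46. The levels were 8.26, 9.14 and 9.29 by 48 h and 9.55, 9.66 and 8.56 by 5 d. Every later time overlapped with 0 h. At 2 h, 6 h, 48 h and 5 d a single low array stood apart from the other two, whereas the 3 arrays lay close together at 0 h (SD 0.14) and at 12 h (SD 0.19).

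For miR-107, the 0 h livers had 8.67, 8.32 and 8.71, the 2 h livers 8.84, 7.95 and 8.85, and the 6 h livers 9.12, 8.17 and 8.83. At 12 h the levels were 9.06, 8.84 and 8.54, and at 24 h 9.24, 8.45 and 8.45. At 48 h they were 8.68, 7.97 and 9.42 and at 5 d 9.22, 9.03 and 8.19. Here too every later time overlapped with 0 h, and 48 h held both the highest level and, apart from replicate 2 of 2 h, the lowest of the 21 arrays.

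**Figure D2:**
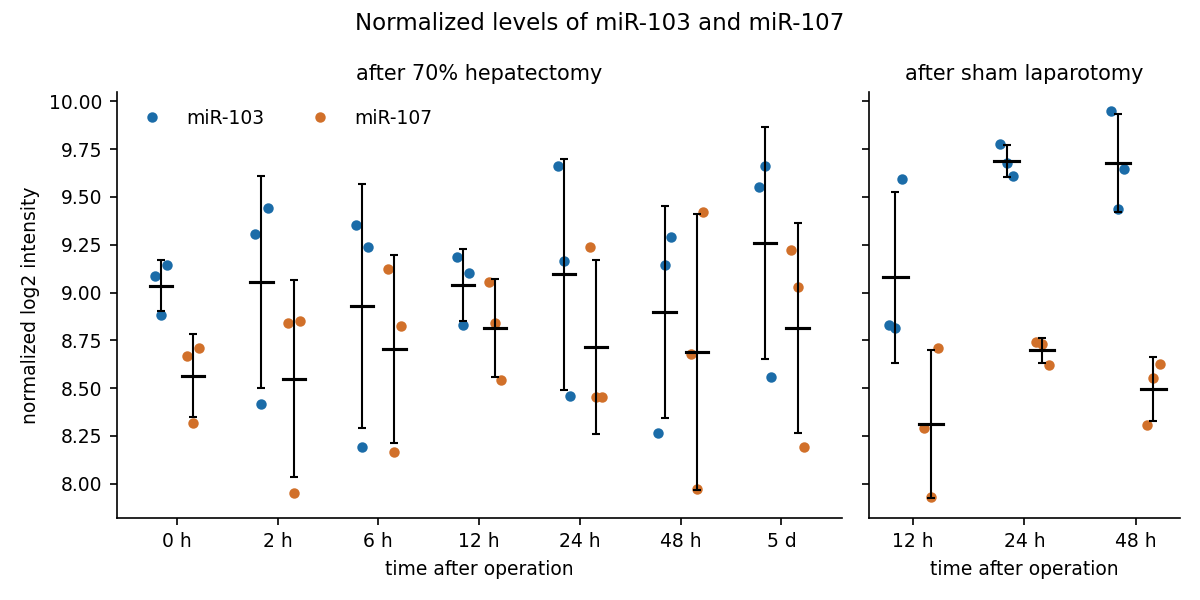
Points give the normalized log2 intensity of miR-103 (blue) and miR-107 (orange) on each array, with hepatectomy and sham arrays normalized separately; bars are means and whiskers SD of 3 arrays. The 7 hepatectomy means span 0.36 for miR-103 and 0.27 for miR-107, less than the pooled SD of 0.51 and 0.49.

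Ordered by mean, miR-103 was highest at 5 d (9.26 ± 0.61, SD, n = 3), followed by 24 h, 2 h, 12 h, 0 h and 6 h, and lowest at 48 h (8.90 ± 0.56). No neighbours in this order differed by more than 0.16, against a pooled SD of 0.51. The order for miR-107 was 5 d (8.82 ± 0.55), 12 h, 24 h, 6 h, 48 h, 0 h and 2 h (8.55 ± 0.52), with no gap above 0.13 and a pooled SD of 0.49. The whole range of the means was thus smaller than the spread within a time for both members.

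Against 0 h, the differences of miR-103 were 0.02 (2 h), -0.11 (6 h), 0.00 (12 h), 0.06 (24 h), -0.14 (48 h) and 0.22 (5 d), each with an SE of 0.37. miR-107 differed by -0.02, 0.14, 0.25, 0.15, 0.13 and 0.25 at the same times, each with an SE of 0.35. None passed the limma test in any of these 6 comparisons, and the lowest adjusted p was 0.789, for miR-107 at 12 h. Of all 388 names, none passed for 2 h (0%), although 24 had an unadjusted p under 0.05 and between 0 and 10 passed under the other settings tried. For 6 h 1 passed (0.258%), for 12 h 11 (2.84%), for 24 h 30 (7.73%), for 48 h 16 (4.12%) and for 5 d 1 (0.258%). The 6 comparisons share the 0 h arrays.

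The intervals of these differences were wide. At 24 h the 95% interval of the difference from 0 h was -0.71 to 0.82 for miR-103, that is 0.613-fold to 1.77-fold, and -0.58 to 0.88 for miR-107, 0.669-fold to 1.84-fold. The SE of miR-103 was larger than that of 95.6% of all names and the SE of miR-107 larger than that of 94.3%, against a median SE of 0.19. At the smallest moderated t that passed at 24 h, a difference with these errors would have had to reach 1.23 for miR-103 and 1.17 for miR-107, which is 2.34-fold and 2.26-fold.

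**Figure D3:**
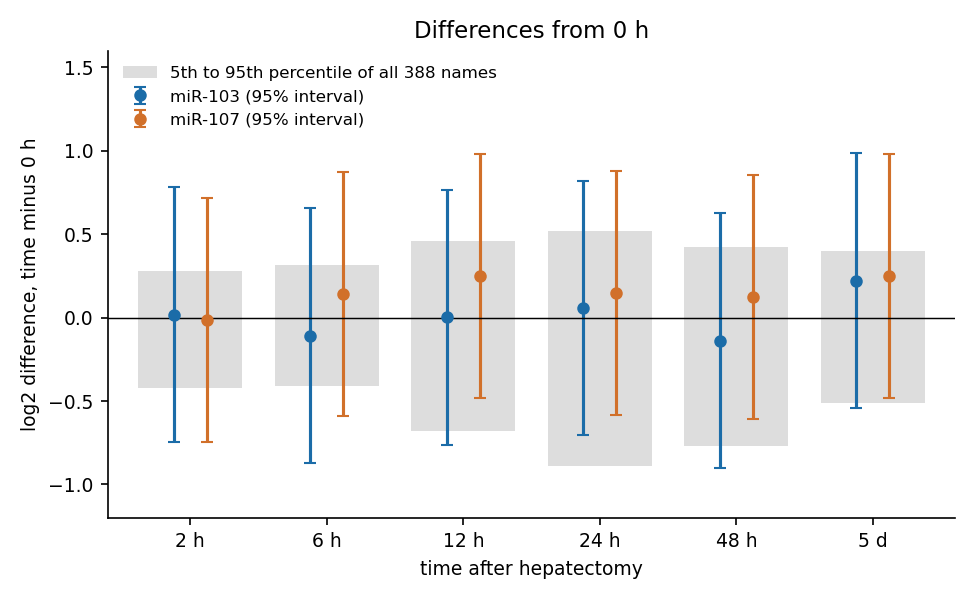
Points give the log2 difference of each later time from 0 h after hepatectomy for miR-103 (blue) and miR-107 (orange), whiskers the 95% interval from limma, and grey boxes the 5th to 95th percentile of all 388 names. All 12 points lie within the grey boxes and all 12 intervals include 0.

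At 5 d after hepatectomy the levels also overlapped with those at 24 h, a comparison that leaves out the 0 h arrays. miR-103 differed by 0.16 (5 d 9.26 ± 0.61, 24 h 9.09 ± 0.60, SE of the difference 0.37, limma adjusted p = 0.940) and miR-107 by 0.10 (5 d 8.82 ± 0.55, 24 h 8.71 ± 0.45, SE 0.35, adjusted p = 0.956). Of all names, 2 passed there (0.515%). Levels of the members differed between bright and dim arrays. Over the 13 bright hepatectomy arrays miR-103 averaged 8.85 ± 0.44 and miR-107 8.48 ± 0.37, and over the 8 dim arrays 9.37 ± 0.18 and 9.03 ± 0.23 (SD). The span over all names is the 95th percentile minus the median of an array's normalized log2 levels, taken after spots were averaged per name. It differed too, at 0.75 to 1.81 on the bright and 1.54 to 1.93 on the dim hepatectomy arrays. With brightness as a block, the difference of 5 d from 24 h was -0.24 for miR-103 and -0.36 for miR-107. The part of brightness or span in these levels was not tested.

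After sham laparotomy miR-103 had a higher mean at 24 h than at 12 h, without passing the test over all names. Its normalized log2 levels were 9.77, 9.68 and 9.61 at 24 h, against 8.83, 8.81 and 9.59 at 12 h. On this scale the groups did not overlap, though replicate 3 of 12 h lay just below the lowest array at 24 h. How many other names did not overlap is not given. The difference was 0.61 (SE 0.19, 95% interval 0.18 to 1.03, 1.52-fold). In limma its p was 0.00928 before and 0.310 after adjustment, and the exact two-sided permutation test of this value gave p = 0.1, the smallest that 3 arrays against 3 allow. No name passed between these times (0% of 680), 61 names had an unadjusted p under 0.05, and miR-103 ranked 16th by the size of its moderated t. The array span over all names averaged 1.54 ± 0.15 at 24 h, against 1.11 ± 0.20 at 12 h (SD, n = 3). Its part in the difference of miR-103 was not tested.

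At 48 h after sham laparotomy miR-103 had 9.95, 9.44 and 9.65, a difference of 0.60 from 12 h (SE 0.19, limma adjusted p = 0.595), and the groups overlapped through replicate 3 of 12 h. The levels at 48 h and 24 h did not differ beyond their spread (-0.01, SE 0.19). No name passed in either comparison (0% in both), with 45 and 16 names at an unadjusted p under 0.05, and the F test over the 3 sham times gave an adjusted p of 0.582 for miR-103 and 0.864 for miR-107, with 0% of names passing and 45 at an unadjusted p under 0.05. With the replicate number as a block, between 0 and 4 names passed in the 3 sham comparisons, and neither member was among those that did.

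miR-107 also had its lowest mean at 12 h and its highest at 24 h. It had 8.29, 7.93 and 8.71 at 12 h, 8.74, 8.73 and 8.62 at 24 h, and 8.31, 8.55 and 8.63 at 48 h. The 24 h and 12 h levels overlapped, and their difference was 0.39 (SE 0.16, limma adjusted p = 0.537). At 48 h miR-107 differed from 12 h by 0.19 (SE 0.16, adjusted p = 0.898) and from 24 h by -0.20 (SE 0.16, adjusted p = 0.997).

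The size of the sham difference depended on how arrays were brought to a common scale. For miR-103 at 24 h against 12 h it was 1.10 after median centring, 1.13 after centring on the 75th percentile, 1.24 with the authors' processed log2 values and 1.49 without normalization, with adjusted p from 0.0721 to 0.436. It was 0.14 when spots were averaged before quantile normalization, an alternative chosen after seeing the data, where the adjusted p was 0.972. With hepatectomy and sham arrays normalized together in that way, the 2 sham groups overlapped. The levels of miR-103 were then 9.21, 9.11 and 9.53 at 12 h, and 9.29, 9.21 and 9.29 at 24 h. On the arrays themselves, miR-103 ranked 20, 21 and 20 among 323 names by background-subtracted signal at 24 h, against 23, 24 and 17 at 12 h, so its position among the other miRNAs hardly moved. The endothelial miR-126 differed by 0.60 between the same times (limma adjusted p = 0.556) and the hepatocyte miR-122 by 0.26 (adjusted p = 0.717). Of the marker lists for 9 cell types, no member passed here, where 0% of all names passed, and their part in the difference was not tested.

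The sham arrays are the control for surgery at 12, 24 and 48 h. The 2 operations were hybridised on different chip layouts, so operation and layout cannot be told apart. In the joint fit over 376 shared names, spots were averaged before quantile normalization, and neither member passed at any time.

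At 24 h, miR-103 had joint log2 levels of 9.99, 10.07 and 8.82 after hepatectomy, against 9.29, 9.21 and 9.29 after sham laparotomy. The groups overlapped, with the lowest array after hepatectomy and a tight sham group. The difference was 0.36 (SE 0.31, 95% interval -0.29 to 1.01, limma adjusted p = 0.484). At 12 h the difference was -0.04 (SE 0.31, adjusted p = 0.959), and at 48 h -0.27 (SE 0.31, adjusted p = 0.744). miR-107 differed by 0.21, -0.06 and 0.25 at 12, 24 and 48 h (SE 0.32, adjusted p from 0.768 to 0.969). Of all names, 4 passed at 12 h (1.06%), 43 at 24 h (11.4%) and 9 at 48 h (2.39%).

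The direction for miR-103 at 24 h turned with the scaling. It was -1.47 after median centring (adjusted p = 0.0123), -1.40 after centring on the 75th percentile (adjusted p = 0.00369), -1.57 with the authors' processed values (adjusted p = 0.0233) and -1.11 without normalization (adjusted p = 0.186). Under quantile normalization with array weights it was 0.61 with an adjusted p of 0.0186. At 48 h, centring on the 75th percentile gave -1.30 with an adjusted p of 0.0115. No direction between the operations is therefore given for miR-103 at 24 h. Among the names that passed at 24 h, 17 were higher and 26 lower after hepatectomy under quantile normalization, against 9 higher and 50 lower after median centring, 16 higher and 49 lower after centring on the 75th percentile, and 6 higher and 41 lower with the authors' values. Without normalization, 0 were higher and 16 lower, and the median of all names was 0.26.

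The 2 kinds of scale read different properties of the same arrays. Quantile normalization of averaged spots keeps only a name's position on its array, so miR-122, at the top on all 6 arrays of 24 h, had a difference of 0.00 by construction. By position, miR-103 ranked 11, 8 and 16 among 323 names by background-subtracted signal at 24 h after hepatectomy, against 20, 21 and 20 after sham laparotomy. By signal, the same arrays gave 944.5, 488 and 336 units after hepatectomy, against 684, 1608.5 and 776 after sham laparotomy.

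**Figure D4:**
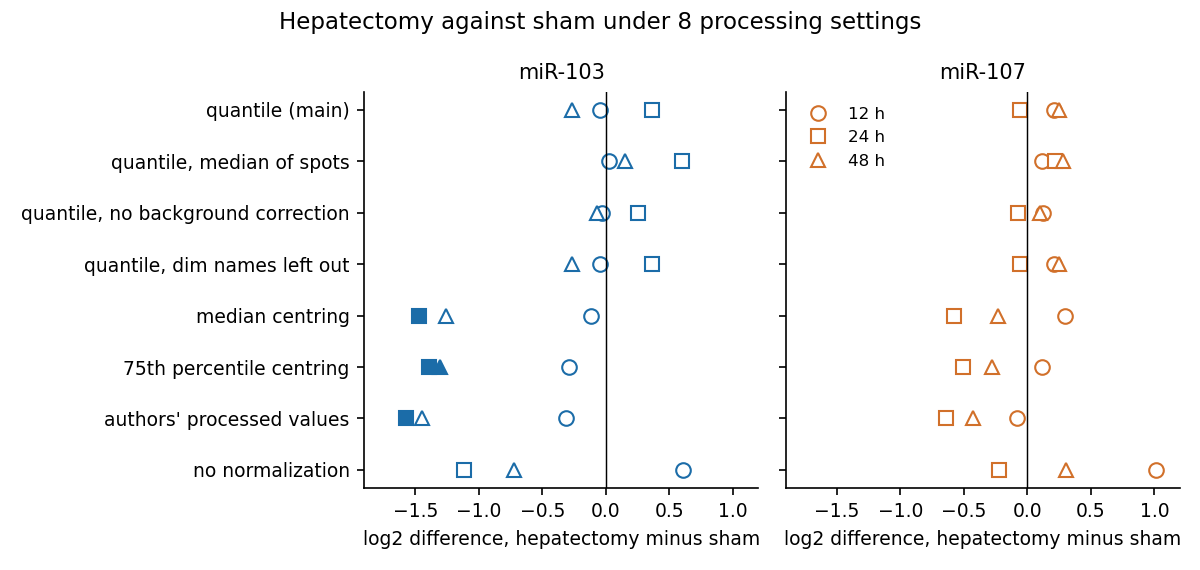
Points give the log2 difference, hepatectomy minus sham, of miR-103 (left) and miR-107 (right) at 12 h (circles), 24 h (squares) and 48 h (triangles) under 8 processing settings, with filled symbols where the limma adjusted p was under 0.05. For miR-103 at 24 h the value is 0.36 under quantile normalization and -1.57 to -1.11 under median centring, 75th percentile centring, the authors' values and no normalization.

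A constant offset between the layouts cancels when changes between times are compared. The change of miR-103 from 12 to 24 h differed between hepatectomy and sham laparotomy by 0.41 (SE 0.45, limma adjusted p = 0.983), its change from 12 to 48 h by -0.22 (SE 0.45, adjusted p = 0.975) and its change from 24 to 48 h by -0.63 (SE 0.45, adjusted p = 0.951). For miR-107 the values were -0.27, 0.04 and 0.31 (SE 0.46, adjusted p from 0.967 to 0.983). No name passed in any of the 3 (0% each), with 18, 11 and 18 names at an unadjusted p under 0.05 and at most 1 passing under another setting. The direction for miR-103 again turned with the scaling from 12 to 24 h, at -1.35 after median centring and -1.26 with the authors' values.

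Whether the 2 probes moved in step was read from the difference miR-103 minus miR-107 within each array, as a change between groups only. After hepatectomy this difference averaged 0.47 ± 0.08 (0 h), 0.51 ± 0.07 (2 h), 0.22 ± 0.19 (6 h) and 0.23 ± 0.30 (12 h; SD, n = 3). It averaged 0.38 ± 0.35 at 24 h, 0.21 ± 0.84 at 48 h and 0.44 ± 0.17 at 5 d. The spread at 48 h came from replicate 2, at 1.17, while the lowest of that time was at -0.42. A two-sided permutation test over the 7 times (100000 resamples) gave p = 0.896, and p = 0.0331 without replicate 2 of 48 h.

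After sham laparotomy the same difference averaged 0.77 ± 0.20 at 12 h, 0.99 ± 0.05 at 24 h and 1.18 ± 0.40 at 48 h. The exact permutation test over the 3 times, with 1680 arrangements, gave p = 0.161. It gave p = 0.0179 with the authors' processed values, 0.025 without normalization and 0.00714 without replicate 2 of 48 h. These tests were not adjusted for the number of settings.

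Across the 21 hepatectomy arrays the 2 members correlated with Pearson's r = 0.69 (permutation p = 0.00052, adjusted p = 0.00104) and Spearman's rho = 0.77 (permutation p = 4e-05, adjusted p = 0.00016), adjusted over 4 such tests. Without the 2 arrays farthest from the median of miR-103, r was 0.73 over 19 arrays, and for deviations from the group means it was 0.71. Within the 13 bright arrays r was 0.54 and within the 8 dim arrays 0.25. Arrays share their overall signal, and miR-107 ranked only 23rd of 387 names by its r with miR-103. Over the 9 sham arrays r was 0.69 (exact permutation p = 0.0468, adjusted p = 0.0624), but -0.45 over the 7 that remained without the 2 farthest arrays, so it rests on those.

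Other names followed the members more closely, which is given as a description over arrays that share normalization and brightness. Nearest to miR-103 over the 21 hepatectomy arrays were miR-31 (r = 0.83), the seed relative miR-497 (r = 0.82) and miR-431 (r = 0.81). Over the 9 sham arrays their r with miR-103 was 0.16, 0.64 and 0.29. Nearest to miR-107 were miR-19a (r = 0.90) and miR-19b (r = 0.90), both of the growth-promoting miR-17/92 clusters, and miR-24 (r = 0.89), with 0.42, 0.59 and 0.19 over the sham arrays. When the 7 group means replaced single arrays, r with miR-103 was 0.31 for miR-31, 0.45 for miR-497 and 0.67 for miR-431, and r with miR-107 was 0.61 for miR-19a, -0.07 for miR-19b and -0.27 for miR-24.

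The passenger strands, the partner strands of the hairpins that are mostly discarded, were analysed on the sham layout alone. Their median background-subtracted signals ranged over 9 arrays from -8 to 40 units for miR-103-1*, from -16 to 28 for miR-103-2* and from -44 to 28 for miR-107*. These signals scattered around 0, against at least 100 units for either member on the same arrays.

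Of the 7 seed relatives, 6 were measured, and miR-424 was not matched by name. None passed in any of the 6 hepatectomy comparisons with 0 h, where 0% to 7.73% of all names passed. The largest difference at 24 h was that of miR-322, the rodent counterpart of miR-424, with 0.58 (24 h 8.79 ± 0.34, 0 h 8.21 ± 0.04, SE 0.20, limma adjusted p = 0.0707). The median of the 6 at 24 h was 0.22, against 0.07 for all names. Against sham laparotomy at 24 h, 2 of 6 were higher after hepatectomy, where 11.4% of all names passed, 17 of them higher and 26 lower. miR-322 was at 8.87 ± 0.08 after hepatectomy and at 8.25 ± 0.14 after sham laparotomy (0.62, SE 0.12, adjusted p = 0.00198), with the same direction in 12 of 12 alternatives and past the threshold in 8. miR-497 was at 9.77 ± 0.95 and 8.87 ± 0.12 (0.90, SE 0.27, adjusted p = 0.0271), but it passed in 3 of the 12 alternatives, and its direction turned under 4 of them, the same scalings that turned miR-103. It also did not pass when replicate 2 of 24 h after hepatectomy (0.37), or replicate 2 (0.86) or 3 (0.87) of 24 h after sham laparotomy, was left out.

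Among 26 other miRNAs tied to insulin, glucose or lipid handling in liver, a list chosen with earlier results of these data known, some passed where miR-103 and miR-107 did not. At 24 h after hepatectomy 3 of 26 fell and 0 rose, where 7.73% of all names passed, with a median of -0.36 over the list, against 0.07 for all names. The array span over all names averaged 1.16 ± 0.47 at 24 h, against 1.76 ± 0.20 at 0 h (SD, n = 3). Its part in the list's differences was not tested. miR-26a, known to restrain glucose production and fat synthesis in mouse liver, was at 9.34 ± 0.62 at 24 h, against 11.30 ± 0.16 at 0 h (-1.97, SE 0.28, adjusted p = 0.000298). let-7a fell by 1.16 (SE 0.23, adjusted p = 0.00431) and let-7b fell by 1.10 (SE 0.24, adjusted p = 0.00843), both of the let-7 family, which represses growth and insulin signalling genes. The 3 kept their direction in 13 of 13 alternatives and passed in 12 of them, all but the one without normalization. let-7b did not pass without replicate 3 of 0 h (-0.84).

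Some markers of other cell types passed in the same comparison, where 7.73% of all names passed. Markers are named here after their values were seen. The endothelial miR-126 fell by 1.52 (limma adjusted p = 0.0113), and its normalized level on the linear scale was 353 to 459 at 24 h, against 929 to 1592 at 0 h. Of 5 mesenchymal names miR-145 fell by 1.12, and the list's differences ran from -1.12 to 0.02. Its summed level was 1274 to 2186 at 24 h, against 1679 to 2587 at 0 h. Of 5 leukocyte names miR-146a fell by 0.68 and miR-142-5p rose by 0.49, with sums of 920 to 1196 at 24 h, against 1058 to 1467 at 0 h. None of the 3 hepatocyte names passed, and their median difference was -0.85, with miR-122 at -1.41. Their summed level was 2231 to 12681 at 24 h, against 10884 to 14809 at 0 h. No biliary name passed (-0.18 to 0.48), nor did any erythroid, striated muscle, neural or islet name. The part of these cells in the differences was not tested.

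At 12 h 2 of the 26 fell, where 2.84% of all names passed. miR-26a fell by 1.11 and passed in 9 of 13 alternatives, and let-7a fell by 0.90 and passed in 4 of 13. Neither passed when replicate 1 or 3 of 0 h, or replicate 2 or 3 of 12 h, was left out, with differences of -1.15 to -0.84 for miR-26a and -0.94 to -0.73 for let-7a.

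At 48 h 3 fell, where 4.12% of all names passed. let-7a fell by 1.07 (passing in 10 of 13 alternatives), let-7b by 0.95 (8 of 13) and miR-378, hosted by Ppargc1b, a coactivator gene of mitochondrial metabolism, by 0.99 (8 of 13). None of the 3 passed without replicate 1 or 3 of 0 h or without replicate 1 of 48 h, let-7b not without replicate 3 of 48 h and miR-378 not without replicate 2 of 48 h. Over these fits let-7a was at -1.11 to -0.92, let-7b at -0.95 to -0.69 and miR-378 at -0.94 to -0.80. At 5 d none of the list passed against 0 h, where 0.258% of all names passed. miR-26a was 1.65 higher at 5 d than at 24 h (SE 0.28, adjusted p = 0.0032), and it passed there in 8 of 13 alternatives. Of all names, 0.515% passed in that comparison. miR-26a and let-7a also passed the F test over the 7 times (adjusted p = 0.00252 and 0.0173), where 2.32% of all names passed.

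Against sham laparotomy at 24 h, 6 of 26 passed, beside 11.4% of all names. miR-26a and let-7a, which had passed at 24 h against 0 h, were not among these 6. miR-27b (-1.48), miR-29a (-1.43), let-7b (-1.06), miR-27a (-0.88) and miR-378 (-0.68) were lower after hepatectomy than after sham laparotomy. miR-335 was higher (0.91), and the adjusted p of the 6 ran from 0.00228 to 0.0237 in limma. Operation and layout cannot be told apart here either. At 48 h, where 2.39% of all names passed, let-7b (-1.07) and miR-378 (-0.85) were lower after hepatectomy, with adjusted p of 0.0188 and 0.0151. Each of these 8 differences kept its direction in 12 of 12 alternatives, and each failed the test in at least 1. At 24 h miR-27b, miR-29a and let-7b passed in 11 of 12, miR-27a in 10, miR-378 in 8 and miR-335 in 7. At 48 h let-7b passed in 9 of 12 and miR-378 in 8, and with the compared groups alone no name passed.

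Single arrays decided several of these calls. At 24 h let-7b, miR-27a and miR-378 did not pass without replicate 2 or without replicate 3 of the sham group. Nor did miR-27a pass without replicate 1 or 2 after hepatectomy, or miR-378 without replicate 3 after hepatectomy. Over these fits let-7b was at -0.96 and -0.93, miR-27a at -0.90 to -0.80 and miR-378 at -0.69 to -0.58. At 48 h neither let-7b nor miR-378 passed without replicate 1 after hepatectomy (-1.01 and -0.77) or without replicate 2 after sham laparotomy (-0.98 and -0.83). let-7b also did not pass without replicate 3 after hepatectomy (-0.96) or replicate 1 after sham laparotomy (-1.06).

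Markers of other cell types at 24 h, where 11.4% of all names passed, are named here after their values were seen. Of 5 leukocyte names 1 was lower after hepatectomy (miR-146a, -0.82), and the list ran from -0.82 to 0.33. Its sums were 863 to 1073 after hepatectomy, against 1041 to 1272 after sham laparotomy. Of 5 mesenchymal names 2 were lower (miR-145, -0.89, and miR-199a-3p, -0.50), while the list reached 0.86. Its sums were 1168 to 2396 after hepatectomy, against 1985 to 2111 after sham laparotomy. Of the 5 biliary names miR-141 was higher (0.57), and the list ran from -0.27 to 0.58 with a median of -0.05. The sums were 962 to 1137 after hepatectomy, against 874 to 1045 after sham laparotomy, where miR-429 was at or below background on every array. The endothelial miR-126 (-0.69) and the 3 hepatocyte names (-0.54 to 0.13) did not pass. Nor did any erythroid, striated muscle, neural or islet name. The part of these cells in the differences was not tested.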

How the data were processed

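Raw spot intensity on a linear scale was deposited by the authors in separate tables for the hepatectomy and the sham arrays, with 15 and 22 spots per name. Per the labels' protocols, total RNA was labelled by febit with biotin through on-chip primer extension. The authors also deposited background-subtracted intensity, which equalled the median raw spot minus 1 constant per array, and processed log2 values for 323 names. The origin of these constants and log2 values is not stated in the labels. Matching of values showed that 4 columns carry different replicate letters in the raw and in these tables, always within a group, and the raw tables' numbers are used.

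Raw intensity was corrected with normexp (offset 50), log2 transformed, quantile-normalized and averaged over spots with limma 3.58.1 in R 4.3.3. Spots were averaged first in the joint fit. Missing spots (0.585% and 0.811%) were left out. Tests were limma moderated tests on group means with Benjamini-Hochberg adjustment over all names of a fit at 0.05, and permutation tests in Python 3.11.15. The number of arrays limits the precision. The fits were tested on simulated data.

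The members and lists were chosen with earlier results of these data known. Named are both members, the 3 names with the highest r with each, every member of the seed-relative and metabolic lists that passed, and the largest of each list at 24 h. Alternatives covered background correction, scaling, spot summary, dim names, array weights, replicate and brightness blocks, the compared groups alone and leaving out each array.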

Additional observations from a re-analysis of the deposited data

How the results depend on the processing

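Over 434 recomputed results other than leaving out an array, 366 kept direction and side of the threshold, 64 changed sign and 4 passed the threshold without changing sign. Of the 64, 3 also passed the threshold, so that 7 passed that had not, and each sign change started from a difference that did not pass. The cause of the changes, and the part of signal over background in them, was not tested.

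Deviations of same-numbered arrays had a mean correlation of 0.08 over 63 hepatectomy pairs (-0.76 to 0.78) and of 0.12 over 9 sham pairs (-0.19 to 0.37). Of these pairs, 32 and 5 had a correlation over 0.1. Between arrays of different numbers the means were -0.04 and -0.06. No label names the numbers as pairs, and they were not used as pairs. With a replicate block no call for either member changed. The adjusted p of miR-103 between 24 and 12 h after sham laparotomy was then 0.147 for a difference of 0.6079, and 3 names passed there.

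All values are log2 differences, later time minus 0 h after hepatectomy unless stated. Median centring gave miR-103 -0.1216 at 2 h, and for hepatectomy minus sham -1.467 at 24 h, -1.354 for the change from 12 to 24 h and 0.2097 for that from 24 to 48 h. It gave miR-107 -0.2289 for hepatectomy minus sham at 48 h and -0.5238 for the change from 12 to 48 h. Centring on the 75th percentile gave miR-103 -0.2213 at 2 h, -0.04619 at 12 h and -0.1136 at 24 h, and for hepatectomy minus sham -1.396 at 24 h, -1.305 at 48 h, -1.104 for the change from 12 to 24 h and 0.09137 for that from 24 to 48 h. It gave miR-107 -0.2759 at 48 h against sham and -0.3922 for the change from 12 to 48 h.

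The authors' processed values gave miR-103 -0.1816 at 2 h, and for hepatectomy minus sham -1.571 at 24 h, -1.256 for the change from 12 to 24 h and 0.1261 for that from 24 to 48 h. They gave miR-107 -0.1276 for 5 d minus 24 h, and for hepatectomy minus sham -0.07917 at 12 h, -0.4242 at 48 h and -0.345 for the change from 12 to 48 h. No normalization gave miR-103 0.2329 at 6 h and 0.2422 at 48 h, and for hepatectomy minus sham 0.6081 at 12 h, -1.115 at 24 h, -1.723 for the change from 12 to 24 h and 0.3902 for that from 24 to 48 h. It gave miR-107 0.1389 at 2 h and -0.7124 for the change from 12 to 48 h. For miR-497 at 24 h, hepatectomy minus sham, these 4 scalings gave -0.459, -0.3877, -0.5911 and -0.1063. The permutation p of miR-103 minus miR-107 over the sham times was 0.01786 with the authors' values and 0.025 without normalization.

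The median of spots gave miR-103 -0.0827 at 2 h, -0.06516 at 12 h and 0.03313 for sham 48 h minus 24 h, and for hepatectomy minus sham 0.0284 at 12 h, 0.1542 at 48 h and 0.1258 for the change from 12 to 48 h. It gave miR-107 0.2174 at 24 h against sham and 0.09777 for the change from 12 to 24 h. Without background correction miR-103 had 0.02462 at 48 h, and miR-107 0.01024 at 2 h and -0.02903 for the change from 12 to 48 h. Array weights gave miR-103 0.227 at 6 h and 0.6057 at 24 h against sham, and miR-107 0.1727 at 2 h and 0.09169 at 24 h against sham. Averaging spots before quantile normalization, chosen after seeing the data, gave miR-103 0.07008 at 6 h, 0.09639 at 48 h and -0.2059 for 5 d minus 24 h, and miR-107 -0.09421 for sham 48 h minus 12 h.

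A brightness block gave miR-103 -0.1827 at 2 h, -0.2363 for 5 d minus 24 h and 0.1221 at 12 h against sham, and miR-107 -0.359 for 5 d minus 24 h and 0.3882 at 24 h against sham. The bright hepatectomy arrays alone gave miR-103 -0.5659 at 2 h, -0.01815 at 12 h, -0.4245 at 5 d, -0.535 for 5 d minus 24 h and 0.02356 at 12 h against sham. They gave miR-107 -0.1643 at 48 h, -0.2992 at 5 d, -0.5234 for 5 d minus 24 h, and against sham -0.09804 at 48 h, -0.3711 for the change from 12 to 48 h and -0.03773 for that from 24 to 48 h. In the correlation of group means, miR-19b had -0.06536 and miR-24 -0.2664 with miR-107.

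Leaving out 1 array at a time gave miR-103 ranges of -0.1755 to 0.336 at 2 h, -0.3199 to 0.2597 at 6 h, -0.07321 to 0.108 at 12 h, -0.2253 to 0.3752 at 24 h, -0.3341 to 0.1793 at 48 h and -0.1528 to 0.5144 for 5 d minus 24 h. They were -0.1457 to 0.1096 for sham 48 h minus 24 h, and for hepatectomy minus sham -0.1541 to 0.08075 at 12 h, -0.6737 to 0.1511 at 48 h and -0.6302 to 0.1946 for the change from 12 to 48 h. For miR-107 the ranges were -0.1667 to 0.2815 at 2 h, -0.06856 to 0.411 at 6 h, -0.1117 to 0.2819 at 24 h, -0.2382 to 0.4841 at 48 h and -0.1047 to 0.412 for 5 d minus 24 h. They were -0.004249 to 0.3835 for sham 48 h minus 12 h, and for hepatectomy minus sham -0.1121 to 0.4665 at 12 h, -0.2188 to 0.08784 at 24 h and -0.09804 to 0.7644 at 48 h. For its changes from 12 to 24 h, 12 to 48 h and 24 to 48 h they were -0.5268 to 0.05179, -0.3072 to 0.5553 and -0.03773 to 0.8247. The permutation p of miR-103 minus miR-107 ranged from 0.03311 to 0.9357 over the hepatectomy times and from 0.007143 to 0.5071 over the sham times.

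The count of names that passed ranged over these settings from 0 to 10 at 2 h after hepatectomy, 0 to 14 at 6 h, 0 to 62 at 12 h, 0 to 92 at 24 h, 0 to 45 at 48 h and 0 to 56 at 5 d (main counts 0, 1, 11, 30, 16 and 1), 0 to 18 for 5 d minus 24 h (2) and 0 to 87 in the F test (9). Against sham laparotomy it ranged from 0 to 148 at 12 h, 16 to 123 at 24 h and 0 to 33 at 48 h (4, 43 and 9). The highest count at 24 h in both fits, 92 and 123, came with array weights. Between sham times, where the main counts were 0, the most was 3 for 24 h minus 12 h and 4 for 48 h minus 12 h, both with a replicate block.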
